A study of Mus musculus and Homo sapiens with 10 samples.

Results

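The genes described here are the human replication-dependent histone genes, taken as every gene symbol of the human RNA table that begins with HIST1H, HIST2H, HIST3H or HIST4H, with no filter on level. The rule found 70 symbols of 22060, on 78 rows and 73 RefSeq entries, and the row with the highest level stood for each symbol. The study sequenced RNA of the human embryonic stem (ES) cell line H1, which shares its name with the linker histone class H1 by coincidence. One library came from cells transduced with a lentivirus carrying an empty hairpin vector (LV sh-empty, the control), and the other from cells transduced with lentiviral hairpins against the DNA methyltransferases (LV sh-DNMTs, the DNMT knockdown). Both were at passage 69, with the time from transduction to harvest not given in the sources used here. Each group held 1 library, so no test across samples was possible, no difference below has a replicate check, and every interval covers counting error only. The other 8 of the 10 samples of the series were mouse samples and were not used here.

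Replication-dependent histone genes supply the histones that package newly copied DNA. H2A, H2B, H3 and H4 form the nucleosome core, and the linker histone H1 binds the DNA where it enters and leaves the nucleosome. The genes lie in a few clusters, of which HIST1 on the short arm of chromosome 6 is the largest, and many encode near-identical or identical proteins. Their transcripts end in a conserved stem-loop in place of a poly(A) tail, are bound by the stem-loop binding protein SLBP, and accumulate in S phase. Some of these genes can also give polyadenylated transcripts that continue past the stem-loop. The RNA here was cytoplasmic and selected for poly(A), a selection that retains few stem-loop transcripts, and the values describe the RNA that passed it.

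The hairpin targets were lower in the knockdown library, DNMT1 at 24.5 against 6.95 RPKM (reads per kilobase of entry, scaled to a library total), DNMT3B at 181 against 75.9 and DNMT3A at 17.9 against 12.2. The control library held 100921087 reads and the knockdown library 92478094. All 11 ES cell markers were present in both libraries, POU5F1 at 921 and 893 RPKM, and their sum was 2453 and 1840. Of them 9 were lower in the knockdown, and 2, TDGF1 (418 against 144 RPKM) and DNMT3B, were past 2-fold lower. DNMT3B is also a hairpin target, and it is counted in the 9 and in both sums. The 2 higher markers were NANOG (17.3 and 32.6 RPKM) and ZFP42 (38.3 and 56.8). Over all symbols, 46.2% were higher and 41% lower, and 2.78% were past 2-fold higher and 3.05% past 2-fold lower. Of 8 fibroblast markers, 6 were higher in the knockdown and 2 lower. COL1A1 (22.8 and 18.2 RPKM), COL1A2 (36.7 and 26.1) and THY1 (35.2 and 109, past 2-fold) had the highest levels. POSTN was at 0.175 and 0.474, TWIST1 at 0.0356 and 0.214, and COL3A1 at 0.00722 and 0.0926, and DCN and LUM were at 0 in the control and at 0.0201 and 0.00511 in the knockdown. The sum of the 8 was 94.9 RPKM in control cells and 154 in knockdown cells. The larger knockdown sum came from THY1, since COL1A1 and COL1A2 were lower and the rest were below 0.5 RPKM. Of 7 mesoderm and endoderm markers, 6 were higher and 1 lower, with sums of 0.294 and 1.53 RPKM. Most of the knockdown sum was the endoderm factor FOXA2, which was past 2-fold higher at 0.00816 and 1.24 RPKM. The 3 neuroectoderm markers summed to 33.4 and 50.2, nearly all of it NES. The part of any such cells in the results below was not tested.

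As a set the histone genes were low in the control and higher in the knockdown library. The median level was 0.194 RPKM in the control and 0.656 RPKM in the knockdown. Of the 70 members, 61 had a higher RPKM in the knockdown and 3 a lower one, and 6 were listed at 0 in both libraries. Over all symbols, 46.2% were higher and 41% lower. Differences were taken as log2 of (RPKM + 0.5), a scale on which genes well below 0.5 RPKM hardly move. On that scale 24 of 70 members were past 2-fold higher, against a background of 2.78% of all symbols, and 0 were past 2-fold lower, against 3.05%. No tool was run to test this, since there is 1 library per group. Among the 32 members with a mean of at least 0.5 RPKM, 22 were past 2-fold higher and 0 lower. The backgrounds were 4.37% and 4.97% of symbols at that level. Some of these members, such as HIST1H4H (0.185 RPKM in the control), passed only through the library in which they were high, which can raise the share called higher. At 1.5-fold the counts over all 70 were 38 higher (background 8.7%) and 0 lower (background 8.51%). The median log2 difference was 0.69 over the 70 members and 0 over all symbols.

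The plain ratio of RPKM values, knockdown to control, could be taken for the 62 members with reads in both libraries. It ran from 0.283 to 26.3, with a median of 3.67, beside a median of 1.02 over all symbols with reads in both libraries. Of these 62 members, 49 had a ratio of at least 2, against a background of 12.3%, and 1 had a ratio of 0.5 or less, against 10.6%. Whole reads worked out from the deposited values came to 2738 in the control and 12636 in the knockdown over all members. Symbols that share values are each counted in these totals, so some reads enter more than once. In 15 members, the 6 at 0 included, fewer than 10 reads were present in both libraries together, and their ratios are poorly measured. Fewer cells of a type and less RNA per cell cannot be told apart in these bulk samples.

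**Figure D1:**
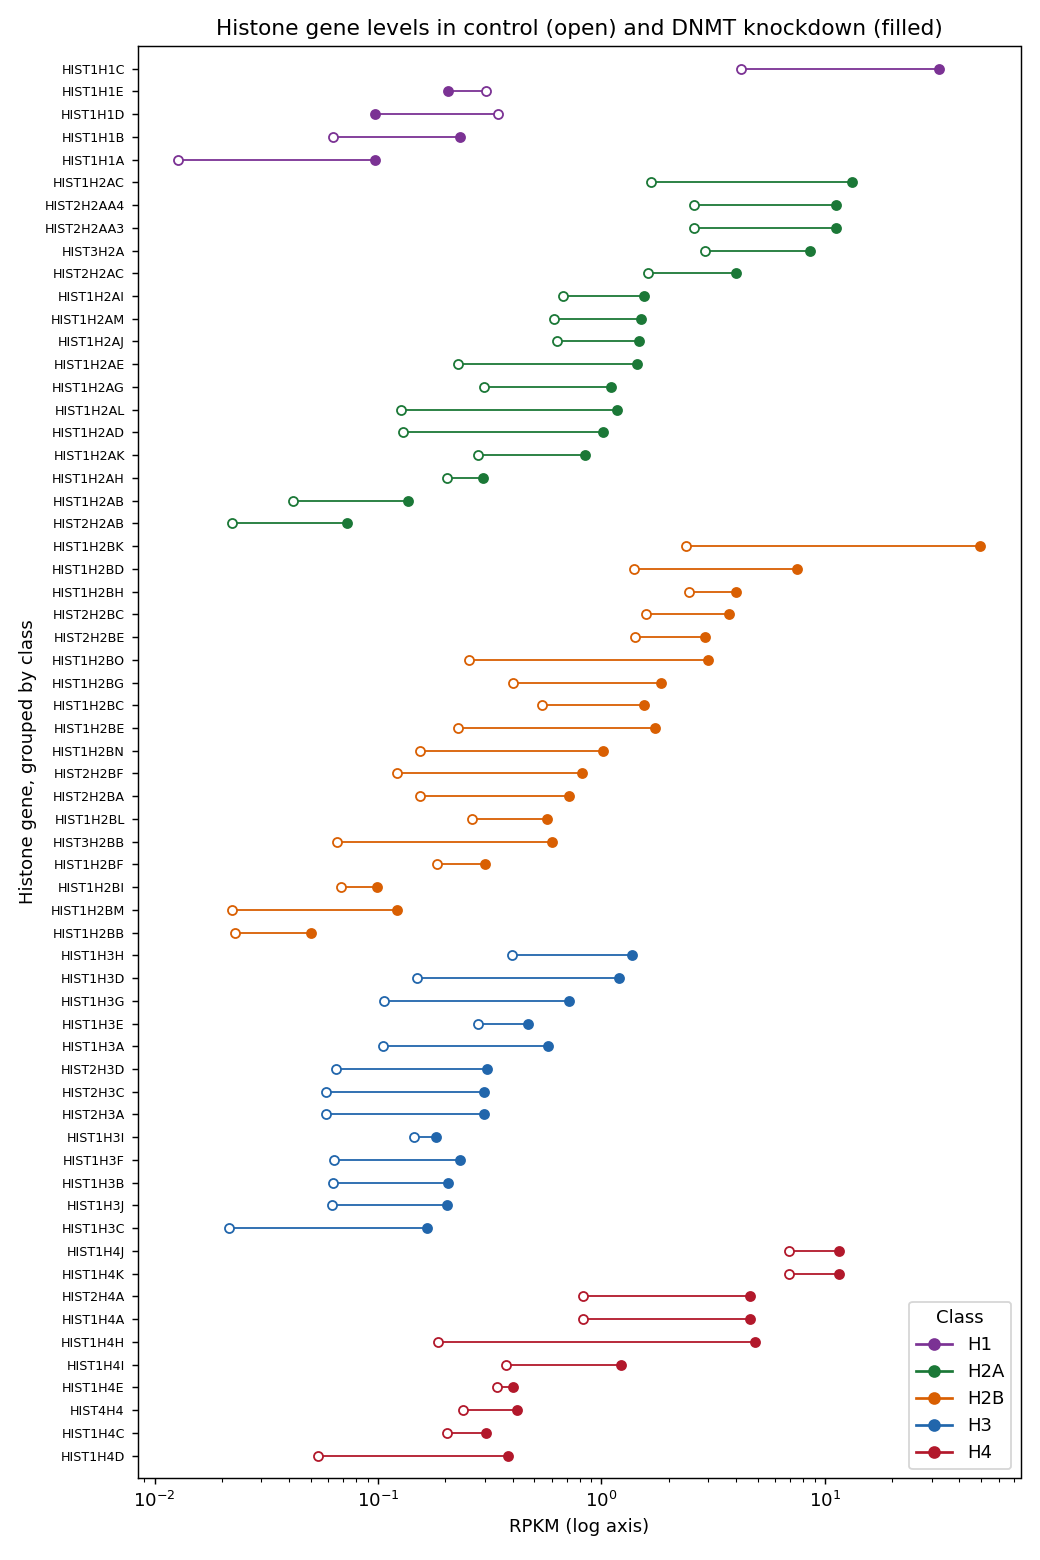
RPKM on a log axis for the 62 histone genes with reads in both libraries, grouped by class and ordered by mean level within a class, with the control as an open point and the knockdown as a filled point (1 library each). The filled point lies to the right of the open one for all but HIST1H1D and HIST1H1E, and HIST1H2BK moves farthest to the right, from 2.40 to 49.6 RPKM.

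The 70 members summed to 49.8 RPKM in the control and 218 RPKM in the knockdown, a ratio of 4.39. A large part of the knockdown sum came from HIST1H2BK, a core H2B gene, and HIST1H1C, which encodes the linker histone H1.2. These 2 genes made up 13.3% of the control sum and 37.6% of the knockdown sum. Without both, the sums were 43.2 and 136 RPKM, a ratio of 3.16. The order of levels also differed between the libraries. HIST1H4J and HIST1H4K, near-identical H4 genes, were the highest in the control and made up 27.8% of the control sum, but ranked 5 and 4 in the knockdown, with 10.5% of the sum. Their reads were nearly equal, 249 and 379 for HIST1H4J and 247 and 377 for HIST1H4K. The same reads may count in both genes, which would raise these shares. HIST1H2BK ranked 8 in the control and 1 in the knockdown.

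Among the linker histone genes 1 member stood apart, and it made up most of the class sum, which was 4.93 RPKM in control cells and 33.1 in knockdown cells. HIST1H1C was at 4.21 RPKM in the control and 32.5 RPKM in the knockdown, from 311 and 2200 reads, a ratio of 7.72 (95% counting interval 6.85 to 8.72). The other members of this class were below 0.4 RPKM in both libraries and went in both directions. HIST1H1D, the gene of H1.3, was at 0.344 RPKM in control cells and 0.0974 in knockdown cells, from 27 and 7 reads, a ratio of 0.283 (0.104 to 0.666). It was the only member of the 62 with a ratio below 0.5. HIST1H1E, the gene of H1.4, was at 0.303 and 0.207 RPKM (24 and 15 reads), and the counting interval of its ratio ran from 0.333 to 1.35. HIST1H1B, the gene of H1.5, was at 0.0627 and 0.233 RPKM on 5 and 17 reads, and HIST1H1A at 0.0127 and 0.0969 RPKM on 1 and 7 reads. The class median log2 difference was 0.11 over its 6 members. The polyadenylated relatives H1F0 and H1FX were lower in the knockdown, H1F0 at 119 RPKM in the control against 59.4 in the knockdown and H1FX at 69.0 against 53.3, while HIST1H1C was higher.

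The H2A genes were higher in nearly every member. Of 17 members, 16 had a higher RPKM in the knockdown and 9 were past 2-fold, with a class median of 1.01 on the log2 scale. The shares over all symbols were 46.2% higher and 2.78% past 2-fold higher. HIST1H2AC was at 1.67 RPKM in control cells and 13.3 in knockdown cells (92 and 670 reads), a ratio of 7.95 (6.38 to 9.99). HIST2H2AA3 and HIST2H2AA4 shared both values, 2.60 and 11.2 RPKM, a ratio of 4.33 (3.59 to 5.25). HIST3H2A was at 2.90 and 8.59 RPKM, a ratio of 2.97 (2.45 to 3.61), and HIST2H2AC at 1.61 and 4.01 RPKM, a ratio of 2.49 (1.87 to 3.34). These 4 sets of values are the highest H2A levels in both libraries, and the interval of HIST1H2AC lies above the other 3. The other H2A genes past 2-fold were HIST1H2AL, HIST1H2AE, HIST1H2AD and HIST1H2AG, with control levels of 0.126 to 0.298 RPKM and knockdown levels of 1.01 to 1.44 RPKM. HIST1H2AI, HIST1H2AJ and HIST1H2AM lay close together, at 0.610 to 0.676 RPKM in the control and 1.48 to 1.54 in the knockdown, with log2 differences of 0.80 to 0.86. HIST1H2AH was at 0.203 and 0.296 RPKM on 9 and 12 reads, and the interval of its ratio, 0.563 to 3.91, includes 1. HIST2H2AB was at 0.0221 and 0.0724 RPKM on 1 and 3 reads.

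Of the 19 H2B genes, 18 had a higher RPKM in the knockdown and 8 were past 2-fold, with a class median of 0.96. The shares over all symbols were 46.2% higher and 2.78% past 2-fold higher. HIST1H2BK was at 2.40 RPKM in control cells and 49.6 in knockdown cells, from 209 and 3960 reads, a ratio of 20.7 (18.0 to 23.9). It was the highest histone gene of this set in the knockdown library. HIST1H2BO was at 0.255 and 3.01 RPKM (12 and 130 reads), a ratio of 11.8 (6.54 to 23.5). HIST1H2BE was at 0.228 and 1.74 RPKM, a ratio of 7.64 (3.92 to 16.6). HIST1H2BG was at 0.401 and 1.85 RPKM, and HIST1H2BN at 0.154 and 1.01 RPKM. HIST1H2BH was at 2.47 RPKM in control cells and 4.02 in knockdown cells (106 and 158 reads), a ratio of 1.63 (1.26 to 2.10). HIST1H2BH and HIST1H2BK thus had like levels in the control, and the knockdown level of HIST1H2BK was about an order of magnitude above that of HIST1H2BH. HIST2H2BC and HIST2H2BA, whose entries are listed as non-coding RNA, were at 1.58 and 3.72 RPKM and at 0.154 and 0.714 RPKM. HIST2H2BE, which has the longest entry of the set at 2223 bp, was at 1.41 and 2.89 RPKM, a ratio of 2.05 (1.78 to 2.35), and was short of 2-fold with the pseudocount. HIST1H2BI (3 and 4 reads) and HIST1H2BB (1 and 2 reads) were too low for their ratios to be read.

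Both members with 2 separate entries of their own were H2B genes. HIST1H2BD had an entry of 523 bp at 1.40 and 7.53 RPKM, a ratio of 5.37 (4.17 to 6.99), and one of 829 bp at 1.12 and 7.17 RPKM, a ratio of 6.39 (5.12 to 8.03). HIST2H2BF had an entry of 1875 bp at 0.122 and 0.819 RPKM, a ratio of 6.74 (4.32 to 11.0), and one of 999 bp at 0.139 and 0.530 RPKM, a ratio of 3.82 (2.08 to 7.49). In both genes the longer entry had the larger ratio, and the intervals of the entries overlapped in each. Entries of 1 gene share sequence and so share reads. Of the 57 core members with reads in both libraries, 4 had an entry of at least 600 bp (HIST1H2BK, HIST1H3D, HIST2H2BE and HIST2H2BF), with ratios from 2.05 to 20.7, and the 53 shorter ones had ratios from 1.18 to 26.3, a split made after the values were seen. Lengths are the shortest that gave whole reads, so an entry counted as short can be longer.

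The H3 genes had the lowest class sum in both libraries. None of the 14 reached 1 RPKM in the control, and the class summed to 1.58 RPKM in control cells and 6.23 in knockdown cells on 81 and 316 reads. The direction was nevertheless shared, since 13 of 14 had a higher RPKM in the knockdown, and 3 were past 2-fold. The shares over all symbols were 46.2% higher and 2.78% past 2-fold higher. HIST1H3D was at 0.149 and 1.20 RPKM (13 and 96 reads), a ratio of 8.06 (4.50 to 15.7). HIST1H3H, the highest H3 gene, was at 0.398 and 1.37 RPKM, a ratio of 3.45 (2.03 to 6.11). HIST1H3G was at 0.106 and 0.718 RPKM on 5 and 31 reads. The class median log2 difference of 0.45 is small beside its median ratio of 4.73, because the pseudocount exceeds the control level of every H3 gene. HIST2H3A and HIST2H3C shared both values, 0.0586 and 0.299 RPKM, and HIST2H3D was close to them at 0.0650 and 0.308 RPKM. HIST1H3I was at 0.145 and 0.181 RPKM on 7 and 8 reads.

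Nearly all H4 genes encode the same protein, and their ratios ran from 1.18 to 26.3. Of 14 members, 11 had a higher RPKM in the knockdown and 3 were past 2-fold, with a class median of 0.49. The shares over all symbols were 46.2% higher and 2.78% past 2-fold higher. HIST1H4H was at 0.185 RPKM in control cells and 4.89 in knockdown cells, from 7 and 169 reads. Its ratio of 26.3 was the highest of all members, with an interval of 12.5 to 66.5 that overlaps that of HIST1H2BK. HIST1H4J was at 6.93 and 11.5 RPKM, a ratio of 1.66 (1.41 to 1.96), and HIST1H4K at 6.91 and 11.5 RPKM, a ratio of 1.67 (1.41 to 1.96). The highest H4 genes of the control thus had a far smaller ratio than HIST1H4H, and their intervals do not overlap its interval. HIST1H4I was at 0.375 and 1.23 RPKM, HIST1H4E at 0.342 and 0.402, HIST1H4C at 0.203 and 0.305, and HIST4H4 at 0.241 and 0.420. The other H4 genes past 2-fold were HIST1H4A and HIST2H4A, which share their values. By the entry that only HIST1H4A carries, HIST1H4A was short of 2-fold. HIST1H4F had 1 read in the control and 0 in the knockdown, and HIST1H4B 0 and 1.

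Some symbols shared their values, and their reads cannot be told apart. In 3 sets, HIST2H2AA3 with HIST2H2AA4, HIST2H3A with HIST2H3C, and HIST1H4A with HIST2H4A, both columns were identical. The last set follows from the table's own naming, which gives the symbol HIST1H4A to 3 Ensembl gene IDs. For 2 of these IDs the RefSeq entries are those of HIST2H4A, at 0.826 and 4.61 RPKM, a ratio of 5.59 (3.83 to 8.38). The entry that only HIST1H4A carries was at 0.0533 and 0.174 RPKM, on 2 and 6 reads, and taking it would put HIST1H4A below 2-fold. How reads with several positions were placed was not given in the sources used here, so values of near-identical genes such as HIST1H4J and HIST1H4K are uncertain.

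Members just inside 2-fold on the scale with the pseudocount were HIST1H3G (log2 difference 1.01), HIST1H2AG (1.01) and HIST2H2BC (1.02). Just outside were HIST1H4I (0.98), HIST1H2BC (0.98) and HIST3H2BB (0.96).

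The order of the classes depends on the scale. On the log2 scale with the pseudocount the medians of H2A and H2B were the highest, at 1.01 and 0.96. By the plain ratio, over members with reads in both libraries, the medians were 4.73 for H3 (13 members), 4.62 for H2B (18), 3.71 for H1 (5), 3.27 for H2A (16) and 2.51 for H4 (10). Whether the classes differ was not tested.

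**Figure D2:**
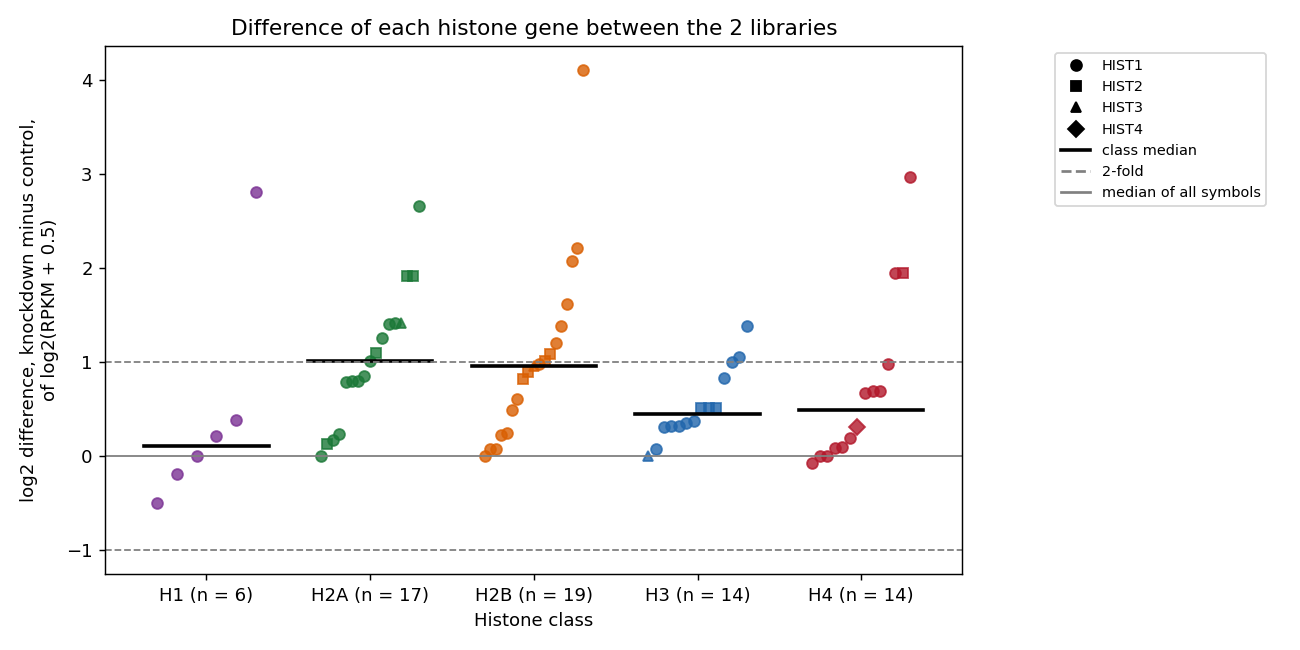
Log2 difference of log2(RPKM + 0.5), knockdown minus control, for each of the 70 histone genes by class, with marker shape for the gene cluster, a black bar at the class median, dashed lines at 2-fold and a grey line at the median of all symbols. The medians of H2A (1.01) and H2B (0.96) lie near the 2-fold line, those of H3 (0.45), H4 (0.49) and H1 (0.11) below it, and no gene lies below the lower line. The order is not that of the median ratios, since the pseudocount holds low genes near 0.

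More members were higher than lower in every gene cluster, beside 46.2% higher and 41% lower of all symbols. In HIST1, 46 of 54 members had a higher RPKM in the knockdown and 3 a lower one, with a median log2 difference of 0.64. In HIST2, on chromosome 1, all 12 members were higher, with a median of 0.95 and RPKM ratios from 2.05 to 6.74. In HIST3, 2 of 3 members were higher, HIST3H2A and HIST3H2BB, the latter at 0.0658 and 0.598 RPKM on 3 and 25 reads. The ratios of HIST1 spread far wider, from 0.283 to 26.3, and the sums gave ratios of 4.75 in HIST1, 3.62 in HIST2 and 3.10 in HIST3. Whether the clusters differ was not tested.

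Many H2A and H2B genes lie head to head and share the stretch between them as their promoter. In 11 such pairs, chosen after the values were seen, both genes had a higher RPKM in the knockdown in each pair, but the sizes often differed. The larger ratio was on the H2A gene in 6 pairs and on the H2B gene in 5. HIST1H2BK, with its ratio of 20.7, pairs with HIST1H2AH, whose ratio was 1.46 (0.563 to 3.91). The entries of these genes differ in length, 863 bp for HIST1H2BK and 439 bp for HIST1H2AH, and the part of this in the ratios was not tested. HIST1H2AC had a ratio of 7.95 (6.38 to 9.99) and its partner HIST1H2BC 2.86 (1.76 to 4.79). HIST1H2BO had 11.8 (6.54 to 23.5) and HIST1H2AM 2.47 (1.59 to 3.94). In these 3 pairs the counting intervals did not overlap, and in the other 8 they did. HIST1H2AD (7.82, 3.31 to 22.5) and HIST1H2BF (1.64, 0.615 to 4.62) were apart in value but overlapped. HIST2H2AC (2.49) and HIST2H2BE (2.05) were close to each other, as were HIST1H2AI (2.28) and HIST1H2BL (2.18).

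**Figure D3:**
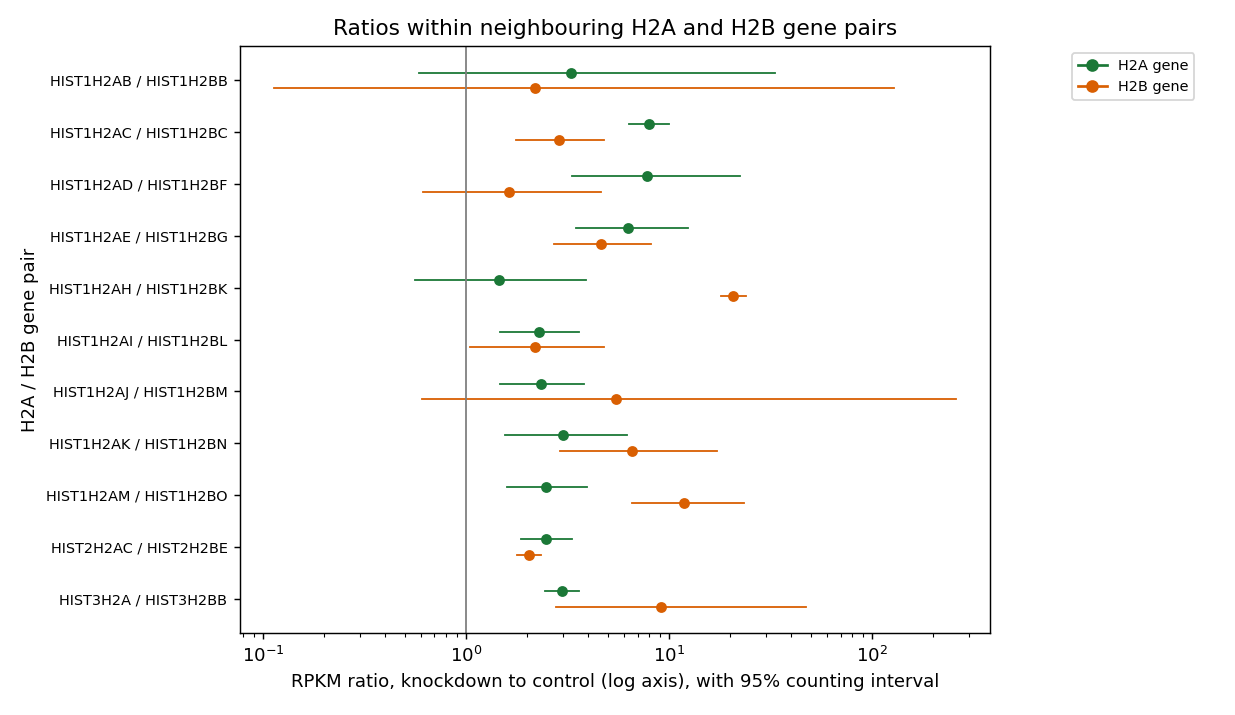
RPKM ratio, knockdown to control, on a log axis for the H2A (green) and H2B (orange) gene of 11 neighbouring pairs, with 95% counting intervals as lines and a grey line at a ratio of 1. All 22 points lie to the right of 1, although the intervals of some low genes include 1, and the intervals are separate for HIST1H2AC with HIST1H2BC, HIST1H2AH with HIST1H2BK and HIST1H2AM with HIST1H2BO.

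HIST1H1T, HIST1H2AA, HIST1H2BA and HIST3H3, members of this set that supply testis forms of H1, H2A, H2B and H3, were at 0 in both libraries. A count of 0 allows up to 3 reads. HIST1H4G and HIST1H4L were the other 2 members at 0. Other germ cell genes had reads, DAZL, an RNA-binding protein of germ cells, at 2.90 and 91.2 RPKM and SYCP3, of the synaptonemal complex, at 0.122 and 4.43. The near-identical H2A.B genes H2AFB1, H2AFB2 and H2AFB3, X-linked and outside the HIST clusters, were at 0.0958, 0.171 and 0.110 RPKM in the control and at 3.83, 3.51 and 3.11 in the knockdown.

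Histone variant genes whose transcripts can carry a poly(A) tail ranged from 0 to 388 RPKM in the control and from 0 to 573 in the knockdown. Of 20 such genes, 14 had a higher RPKM in the knockdown and 6 a lower one, beside 46.2% and 41% of all symbols. Past 2-fold were 4 higher and 0 lower, beside 2.78% and 3.05%. The median log2 difference was 0.32, beside 0.69 for the replication-dependent genes. H2AFZ, the gene of H2A.Z, was at 331 RPKM in control cells and 573 in knockdown cells, and H2AFX, the gene of the DNA damage variant H2A.X, at 25.6 and 42.3. H3F3A and H3F3B, both of H3.3, were at 388 and 374 RPKM and at 126 and 150 RPKM. Beside the 3 H2A.B genes, H2AFY, the gene of macroH2A1, was past 2-fold, at 25.8 and 68.0 RPKM. The whole replication-dependent set, at a sum of 49.8 RPKM, was below the level of H2AFZ alone in the control, and its knockdown sum of 218 was still below that of H2AFZ. This compares only RNA that passed the poly(A) selection, which retains few stem-loop transcripts, and not all RNA of these genes.

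The machinery that ends and degrades histone transcripts was present in both libraries. SLBP was at 17.9 RPKM in control cells and 23.1 in knockdown cells. LSM10, of the U7 particle that cleaves histone transcripts, was at 12.7 and 18.6 RPKM, and LSM11, of the same particle, at 1.53 and 0.688. ERI1, an exonuclease that trims the stem-loop, was at 3.46 and 4.59, and UPF1, a helicase needed for their decay, at 14.8 and 13.8. Of 23 genes of this list, 16 were higher and 7 lower, beside 46.2% and 41% of all symbols, with a median of 0.33. On the scale with the pseudocount, 0 were past 2-fold higher or lower, beside 2.78% and 3.05%. The plain ratio of LSM11, knockdown to control, was 0.450. For transcription of histone genes, NPAT, their coactivator, was at 2.58 and 3.29 RPKM, and HINFP, which binds H4 promoters, at 6.88 and 7.33. Of these 12 genes, 1 was past 2-fold higher, against a background of 2.78% of all symbols. It was CCNE2, a cyclin E, at 0.833 and 2.31 RPKM, and the other cyclin E, CCNE1, was at 8.09 and 16.1.

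Of 25 genes of S phase and DNA replication, 22 had a higher RPKM in the knockdown and 3 a lower one, beside 46.2% and 41% of all symbols. Past 2-fold were 3 higher and 0 lower, beside 2.78% and 3.05%, and the median log2 difference was 0.52. The 3 were RRM2, a subunit of ribonucleotide reductase, at 14.2 and 43.2 RPKM, MCM7, of the replicative helicase, at 71.8 and 148, and CCNE2. PCNA, the clamp of the replication fork, was at 96.6 and 157, and CDC6, which loads the helicase, at 17.2 and 34.3. Others lay near no difference, such as RRM1 (28.3 and 29.4), TYMS (28.4 and 30.1) and GINS2 (22.8 and 23.8), and the 3 lower genes were CDT1 (25.1 and 18.5), POLD1 (23.2 and 19.1) and RFC4 (37.7 and 31.4). Of 14 genes of mitosis, 8 were higher and 6 lower, 0 past 2-fold, with a median of 0.07. CCNB1 was at 62.5 and 66.6 RPKM, CDK1 at 66.2 and 39.4 and TOP2A at 73.8 and 64.2. Whether the number of cells in S phase differed between the cultures was not tested.

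Of 17 histone chaperones, 14 were higher and 3 lower, beside 46.2% and 41% of all symbols, with a median of 0.24. Among them 1 was past 2-fold higher, a share close to the background of 4.37% at a mean of at least 0.5 RPKM. ASF1B, which hands H3 and H4 to the replication fork, was that gene, at 10.1 and 21.7 RPKM. CHAF1A, the large subunit of the assembly factor CAF-1, was at 21.8 and 39.8, DAXX, a chaperone of H3.3, at 17.2 and 31.6, and NASP, which guards free H3 and H4, at 173 and 193.

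Other RNAs that lack a poly(A) tail were measured to show how such RNA fared in the selection. Of 21, 7 were listed at 0 in both libraries, and the median log2 difference was 0. In the knockdown 6 were higher and 8 lower, beside 46.2% and 41% of all symbols. Past 2-fold were 1 higher and 0 lower, beside 2.78% and 3.05%. The 28S and 18S ribosomal RNA entries, RNA28S5 and RNA18S5, were at 1399 and 1357 RPKM and at 250 and 274 RPKM. The 7S RNAs of the signal recognition particle, RN7SL1 and RN7SL2, were lower in the knockdown, at 121 against 62.2 and 149 against 74.6 RPKM, and RN7SK was at 6.83 against 3.55. The small nucleolar RNA SNORD17, at 0.418 and 2.46 RPKM, was past 2-fold higher, and SNORA73B was at 4.14 and 8.21. RMRP, the RNA of an RNA-processing enzyme, was at 0.537 and 0.937. These RNAs thus went in both directions. Their part in the histone values was not tested, and whether the histone reads come from stem-loop or from polyadenylated transcripts was not tested either.

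**Figure D4:**
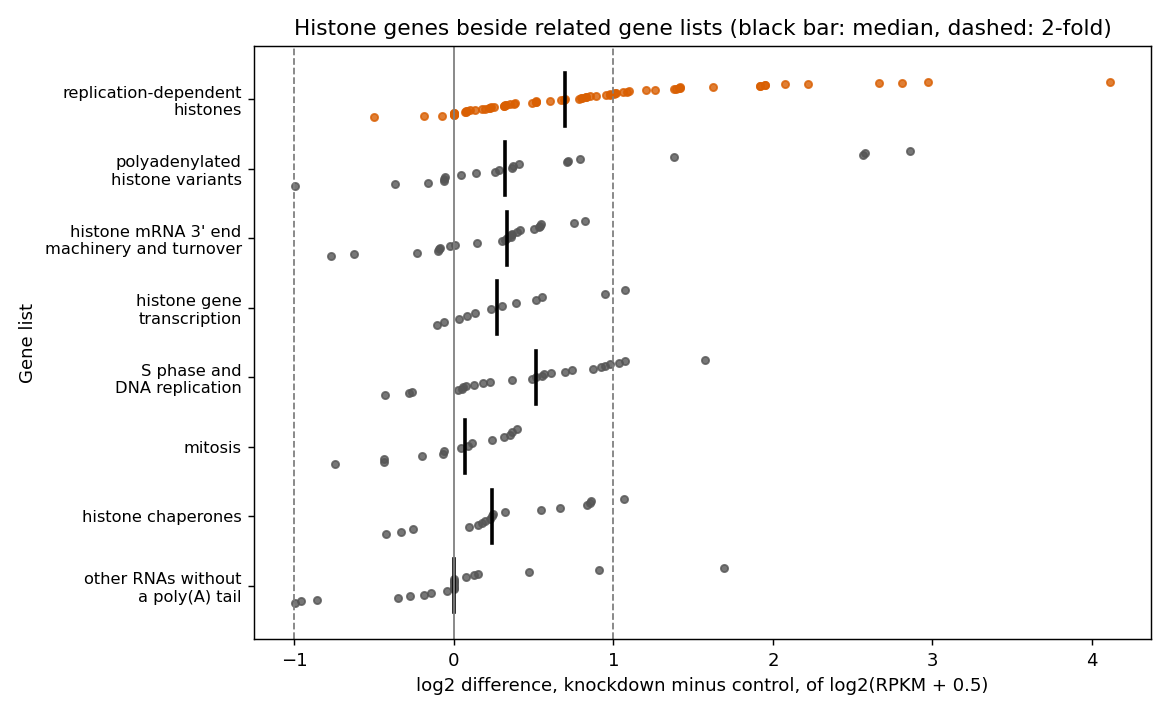
Log2 difference of log2(RPKM + 0.5), knockdown minus control, for the 70 replication-dependent histone genes (orange) and for each gene of 7 related lists (grey), with a black bar at each median and dashed lines at 2-fold. The histone median of 0.69 is followed by S phase at 0.52, and the other lists lie between 0 and 0.33.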

How the data were processed

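Poly(A)-selected cytoplasmic RNA of 2 human libraries was used. Per the labels' protocols, extraction included a DNase step. The submitters' processing notes name Bowtie 0.12.5 and the genome build hg19. Counting, annotation release, strand and the placing of reads with several positions were not given in the sources used here. Per RefSeq entry and per L1 copy, the authors deposited RPKM values, and columns were matched to samples by name. The highest row per symbol was kept.

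Library totals are those that turned 100% of L1 values into whole reads (within 0.01). Each member's entry length is the shortest, up to 6000 bp, that gave whole reads within 0.0001 in both libraries. The search began at 300 bp for H4, 380 for H2A and H2B, 400 for H3 and 580 for H1, near coding lengths. The true length may be a multiple of the one found, in which case reads are understated and intervals too wide. On 200 simulated entries, 90.0% of lengths were exact. Of intervals taken from the simulated reads themselves, 97.5% held the true fold. Intervals from reads worked out through the length found were not tested in this way. Levels and ratios have exact Poisson and exact binomial (Clopper-Pearson) 95% intervals. Reads are not independent molecules.

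Other pseudocounts, folds, level filters, row choices and centring were tried as alternatives. Python 3.11.15, pandas 2.3.3 and scipy 1.17.1 were used. Named are the 15 highest members, the 10 highest and 10 lowest differences, the highest per class and cluster, those near 2-fold, symbols sharing values, and for each list those past 2-fold and up to 6 of the highest. Further list genes were named after their values were seen. Members and lists were chosen with earlier results of these data known. Promoter motifs and protein identity were not analysed here.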

Additional observations from a re-analysis of the deposited data

How the results depend on the processing

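Of 88 values recomputed under other settings, 60 stayed within 1.5 times of a count or within counting error, 28 moved and 0 changed direction. The count of members past 2-fold higher was 24, and 40 with a pseudocount of 0.1, 13 with one of 1, 38 at 1.5-fold, and 49 of 62 without a pseudocount (an alternative added after seeing the data). The count lower was 0, and 1 with a pseudocount of 0.1 or none, which is HIST1H1D. With a pseudocount of 0.1 the median log2 difference was 1.15 over all members. By class it was 0.40 for H1, 1.32 for H2A, 1.36 for H2B, 1.21 for H3 and 0.67 for H4. By cluster it was 1.03 for HIST1, 1.33 for HIST2, 1.54 for HIST3 and 0.61 for HIST4. With a pseudocount of 1 the only median to move was that of HIST2, at 0.69. Among the 32 members with a mean RPKM of at least 0.5, the median log2 difference was 1.32. By class these members gave 2.81 for H1 (1 member), 1.26 for H2A, 1.29 for H2B, 1.22 for H3 and 1.46 for H4. By cluster they gave 1.26 for HIST1, 1.51 for HIST2 and 1.42 for HIST3. Some of these members passed only through the knockdown library, in which they were high. Among them are the H3 members, HIST1H3D (0.149 RPKM in the control) and HIST1H3H (0.398). The filter can therefore raise these medians. HIST4 had no member left there. The summed RPKM was 46.3 and 202 with shared values counted once, and 47.4 and 169 without HIST1H2BK. The knockdown sum was 226 with distinct rows added up, and 214 with HIST1H4A at its own entry (likewise added after seeing the data). No paired analysis was possible because the human groups have 1 library each. The size of the differences of low genes therefore depends on the pseudocount, and the 15 members under 10 reads are limited by depth.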

Other observations

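Other genes around the HIST1 cluster on chromosome 6, a set of 16 chosen after values of these data were seen, did not share the direction of the histone genes. Of these, 4 had a higher RPKM in the knockdown and 10 a lower one, beside 46.2% and 41% of all symbols. The other 2 were at 0 in both libraries, and the median log2 difference was -0.15. Some of the set, such as SLC17A3, SLC17A4, POM121L2 and BTN1A1, were below 0.1 RPKM in both libraries, and their directions are poorly measured. Past 2-fold were 0 higher and 2 lower, beside 2.78% and 3.05% of all symbols. HFE, the iron regulator gene that lies among the histone genes, was at 0.125 and 0.0973 RPKM. TRIM38, beside the cluster, was at 1.02 and 0.388, and ABT1, between its blocks, at 8.56 and 11.6. The 2 past 2-fold lower were BTN3A2, a butyrophilin, at 1.70 and 0.390, and the zinc finger gene ZNF391, at 3.42 and 1.23.

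Of 5 testis germ cell genes, DAZL, SYCP3 and the helicase gene DDX4 (0.0321 and 0.763 RPKM) were past 2-fold higher in the knockdown. Over all symbols that share was 2.78%. TNP1, a transition protein that takes the place of histones in sperm, was listed at 0 in both libraries, and PRM1, a protamine, was at 0.0465 and 0.152 RPKM.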
